A study of Tachycineta bicolor with 12 samples.

Results

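The transforming growth factor beta (TGF-β) superfamily was followed across brain, ovary, spleen, liver, pectoral muscle and trunk blood of the tree swallow (*Tachycineta bicolor*). Members were the protein-coding segments of the de novo transcriptome whose protein name contains 1 of 12 terms, such as bone morphogenetic protein, growth/differentiation factor, inhibin, activin receptor, TGF-beta receptor or mothers against decapentaplegic. The terms were met by 68 of the 14908 segments, which carry 55 distinct protein names. They reach beyond ligands and receptors. By name, 26 segments are ligands, 12 receptors, 13 SMADs (the intracellular signal carriers), 5 secreted antagonists, 3 other follistatin-related proteins and 8 latency or processing proteins. The last is nodal modulator 1 (NOMO1), a protein of the endoplasmic reticulum that carries the word nodal in its name. None of the 68 segments carries the name of AMHR2 or TGFB1, so neither gene is covered here.

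RNA came from 2 adult, breeding, free-living females, 1 taken while establishing a territory and 1 while incubating, with no treatment or genetic change in either bird. RNA of the birds was mixed in equal molar amounts for each tissue, so a tissue is 1 pool, differences between the females cannot be seen, and no test between tissues is possible. Each pool was sequenced as a NextSeq and a MiSeq library, which gives 12 libraries and a technical repeat only. The paper gives longer reads for MiSeq than for NextSeq, so the repeat differs in read length as well as in depth. The values are estimated read counts per segment in steps of 0.5, not normalized.

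Ligands of this family are secreted dimers that bring type I and type II receptor kinases together. The activated type I receptor phosphorylates a receptor-regulated SMAD, which enters the nucleus with the shared partner SMAD4. TGF-βs, activins and nodal act mainly through SMAD2 and SMAD3, and bone morphogenetic proteins (BMPs) mainly through SMAD1, SMAD5 and SMAD9. Growth/differentiation factors (GDFs) are divided between these branches. SMAD6 and SMAD7 inhibit the pathway. In the vertebrate ovary the family is known for oocyte and granulosa cell factors, and in muscle for myostatin, which limits muscle growth.

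Library totals ranged from 15484468 to 40798611 counts for NextSeq and from 1011107 to 2004444 counts for MiSeq. Levels are given as CPM, counts scaled to a total of 1000000 for the library or for both libraries of a pool together. A single count equals 0.499 to 0.989 CPM in a MiSeq library, so MiSeq values near 1 CPM rest on 1 or 2 counts. No segment lengths are given, so levels are compared between tissues for 1 segment and not between segments. Intervals are exact Poisson intervals at 95% of the summed counts, and a count of 0 is given the limit of 3 counts. Both cover counting error only. Of 33 markers listed for cell types of the sampled tissues, 29 were found, and by CPM all were highest in their own tissue. Among them the glial marker AQP4 was at 79.7 CPM in brain and also at 38.6 CPM in muscle. A few transcripts take a large share of the counts in blood, muscle and liver. Scaling by trimmed mean of M values (TMM) moved the log2 levels of all segments up by 1.46 for muscle and 0.82 for both blood and liver, while the shift was −0.91 for brain, −1.04 for spleen and −1.16 for ovary. In RNA from whole tissue, fewer cells of a type and less RNA per cell cannot be told apart.

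Ovary and brain expressed most of the family and blood the least. At 1 CPM or more, ovary had 59 of the 68 members, brain 55, spleen 44, liver 35, muscle 29 and blood 19. As shares these are 86.8%, 80.9%, 64.7%, 51.5%, 42.6% and 27.9%. Of all segments in the table, 88.3%, 87.7%, 83.4%, 66.7%, 61.2% and 57.7% were present in the same tissues. The members' share was thus near the background in ovary and below it by 29.7 percentage points in blood. Members also had lower CPM, which without segment lengths cannot be read as lower expression. Among segments at 1 CPM or more in some tissue, their median highest level was 32.7 CPM, against 59.6 CPM overall for such segments. The part of level in these gaps was not tested. Only 16 members were present in all 6 tissues (46.5% of all segments were), and 13 in a single tissue (7.83% of all segments). The nodal homolog was the 1 member that reached 1 CPM in no tissue.

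**Figure D1:**
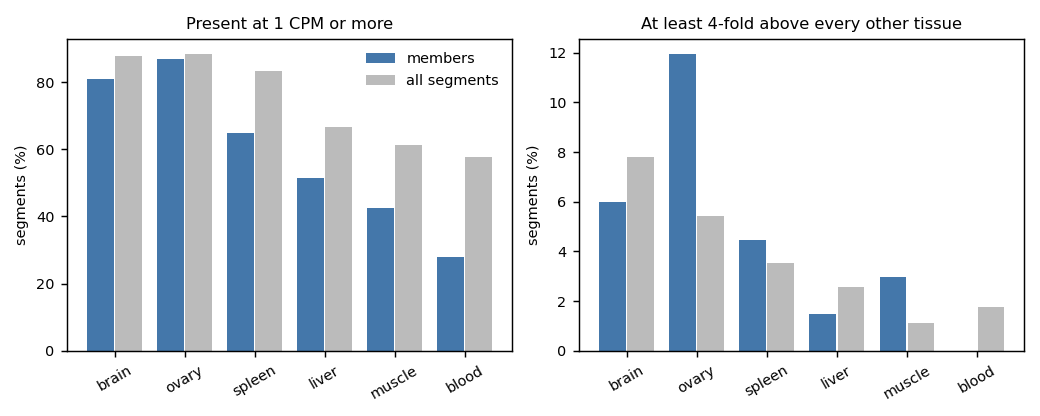
Share of the 68 members (blue bars) and of all 14908 segments (grey bars) present at 1 CPM or more in each tissue pool (left, percent), and share of the 67 members and 14561 segments at 1 CPM or more in some tissue whose level there was at least 4 times that of every other tissue (right, percent). On the left the members' bar is the lower one in every tissue, with the smallest gap in ovary (1.503 percentage points) and the widest in blood (29.7). On the right it is the higher one in ovary (11.9% against 5.44%), spleen and muscle, and the lower one in brain, liver and blood.

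Most tissue-restricted members were ligands, and receptors and SMADs were shared among tissues. A member was said to lead in a tissue when its CPM plus 1 was at least 4 times that of every other tissue. Of the 67 members at 1 CPM or more in some tissue, 18 led in 1 tissue (26.9%, against 22.2% of the 14561 segments at that level). Among ligands 14 of 25 led, among receptors 1 of 12 and among SMADs 0 of 13. With NextSeq or MiSeq libraries alone, TMM scaling, or without the 50 most abundant segments of each tissue, these counts were 13 or 14 for ligands, 1 or 2 for receptors and 0 or 1 for SMADs. By tissue, 8 members led in ovary (5.44% of all segments did), 4 in brain (7.82%), 3 in spleen (3.52%), 2 in muscle (1.11%), 1 in liver (2.55%) and 0 in blood (1.74%). Without regard to a lead, the highest level was in ovary for 23 of the 67 (34.3%, against 32.1% of all segments), in brain for 19 (28.4%, against 24.9%), in spleen for 16 (23.9%, against 23.7%), in liver for 5 (7.46%, against 6.23%), in muscle for 2 (2.99%, against 4.11%) and in blood for 2 (2.99%, against 8.89%). Under TMM scaling the same counts were 14, 11, 10, 9, 11 and 9, so these shares rest on the scaling while the leads by class do not. The 2 leads in muscle are segments of 1 gene, and of the 3 in spleen, 2 are segments of LTBP1. Of the 4 in brain, 2 are segments named GDF1. In both platforms' data taken singly, 13 of the 18 led.

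The index of tissue specificity (τ) runs from 0 for even expression to 1 for expression in 1 tissue, and was computed on natural logs with levels under 2 CPM set to 2. Median τ was 0.665 for ligands, 0.449 for SMADs and 0.369 for receptors, against 0.461 over all segments at 1 CPM or more and 0.548 over the members. With 1 segment for each protein name, the medians were 0.660, 0.472 and 0.331. Across those platform and scaling settings the ligand median stayed above those of SMADs and receptors, while SMADs and receptors changed places under TMM scaling (0.390 for SMADs and 0.418 for receptors). The 24 that reached 50 CPM had a median τ of 0.677, against 0.409 for all segments at that level, while the 23 at 10 to 50 CPM had 0.480 against 0.543 and the 20 at 1 to 10 CPM 0.414 against 0.458. Of the 24, 5 are LTBP1 segments of 1 locus with τ of 0.676 to 0.684, so the median of 0.677 rests in part on 1 gene. The floor of 2 CPM gives τ near 0 to rare transcripts whatever their pattern. By that effect a BMP2-like segment seen above 1 CPM in ovary alone (1.74 CPM) has a τ of 0.

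**Figure D2:**
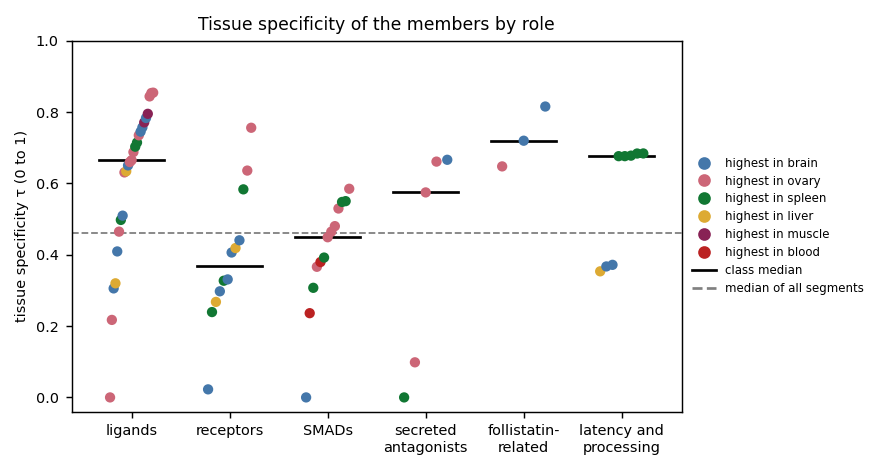
Tissue specificity τ (0 to 1, vertical axis) of the members at 1 CPM or more in some tissue, by role, NOMO1 left out. Each point is a segment coloured by the tissue of its highest CPM, black lines are class medians and the dashed line is the median of all segments (0.461). Ligands reach from 0 to 0.854, and no SMAD exceeds 0.585.

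**Figure D3:**
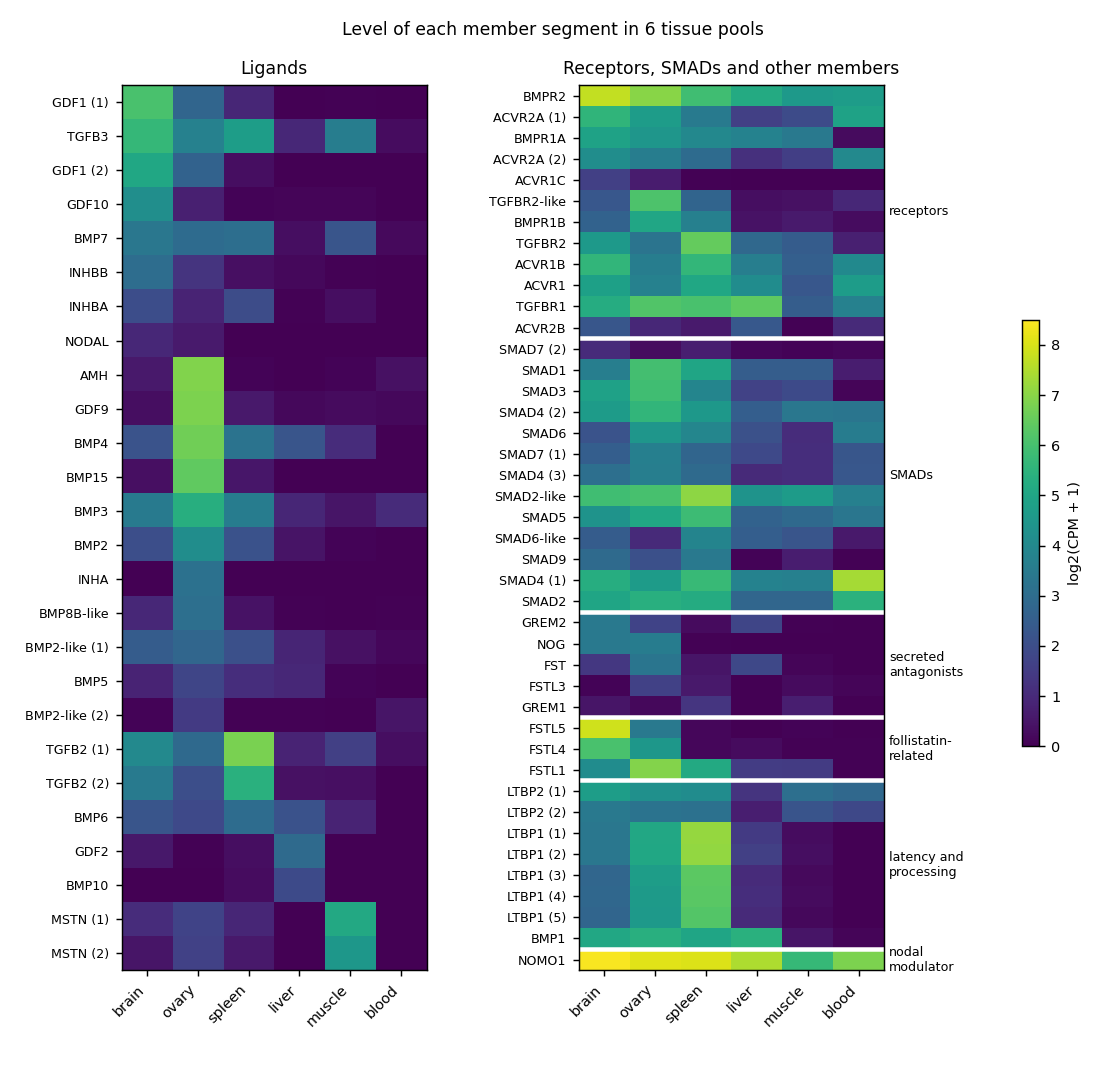
Level of each of the 68 member segments (rows) in the 6 tissue pools (columns) as log2 of summed CPM plus 1, grouped by role. Numbers in brackets tell segments of 1 protein name apart, ordered by their highest level. Bright single cells mark the restricted ligands, such as AMH, GDF9 and BMP15 in ovary, while rows of receptors and SMADs are coloured in several tissues.

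The ovary held the ligands of the follicle. AMH (muellerian-inhibiting factor in the table), which granulosa cells secrete and which restrains follicle growth, measured 118 CPM in ovary, 0.428 CPM in brain, 0.283 CPM in blood, 0.0646 CPM in spleen, 0.0368 CPM in muscle and no counts in liver in the NextSeq libraries. The MiSeq libraries gave 96.3 CPM in ovary, 1.48 CPM in brain, 0.748 CPM in muscle, 0.555 CPM in blood and no counts in spleen and liver. Only the ovary libraries stood above the rest, and the ovary level of 117 CPM (95% interval 113 to 121) did not overlap that of brain, the next tissue, at 0.483 CPM (95% interval 0.226 to 0.901).

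GDF9 and BMP15 are oocyte factors that act on granulosa cells and are known to work as a pair in mammals. GDF9 had 114 CPM in ovary, 0.452 CPM in spleen, 0.268 CPM in brain, 0.196 CPM in muscle, 0.134 CPM in liver and 0.133 CPM in blood in the NextSeq libraries. In MiSeq it had 95.5 CPM in ovary, 0.988 CPM in spleen and no counts in brain, liver, muscle and blood. For BMP15 the NextSeq values were 85.0 CPM in ovary, 0.355 CPM in spleen, 0.295 CPM in brain and no counts in liver, muscle and blood. Its MiSeq values were 80.6 CPM in ovary, 1.48 CPM in spleen and no counts in brain, liver, muscle and blood. Both were ovary transcripts on either platform, with τ of 0.853 and 0.844, beside 0.854 for AMH. These 3 were the only ligands with a τ over 0.8. Against the limit that a count of 0 allows, BMP15 was by CPM at least 901-fold higher in ovary than in blood. For muscle this bound was 1210.1-fold. Such bounds cover counting error only. TMM scaling lowers these 2, since it moved log2 levels by −1.16 in ovary, 0.82 in blood and 1.46 in muscle.

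Inhibin alpha (INHA), the subunit that turns activin into inhibin, the gonadal inhibitor of follicle-stimulating hormone, was counted in ovary and nowhere else. Its NextSeq value was 8.05 CPM in ovary and 0 CPM in the other tissues. The MiSeq value was 5.57 CPM in ovary and again 0 CPM elsewhere. The ovary level of 7.92 CPM (95% interval 6.88 to 9.08) was at least 43.6-fold higher than the limit for 0 counts in spleen, the shallowest pool. The beta subunits, which form activins as dimers and inhibins with alpha, were distributed otherwise. INHBB had 7.39 CPM in brain, 1.49 CPM in ovary, 0.291 CPM in spleen, 0.149 CPM in liver, 0.0368 CPM in muscle and no counts in blood in NextSeq and 4.95 CPM in brain, 0.372 CPM in ovary and no counts in spleen, liver, muscle and blood in MiSeq, and was thus highest in brain on both. INHBA had 2.87 CPM in spleen, 2.79 CPM in brain, 0.704 CPM in ovary, 0.221 CPM in muscle, 0.0298 CPM in liver and no counts in blood in NextSeq and 7.42 CPM in brain, 3.46 CPM in spleen, 2.23 CPM in ovary, 0.499 CPM in muscle and no counts in liver and blood in MiSeq. Brain and spleen were not distinguishable for INHBA, at 3.02 CPM (95% interval 2.30 to 3.90) and 2.91 CPM (95% interval 2.15 to 3.86), and their order differed between the platforms. In ovary INHBA was at 0.783 CPM and INHBB at 1.43 CPM.

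Among BMPs, BMP4, which theca cells make in the mammalian follicle, led in ovary at 99.9 CPM (95% interval 96.1 to 104) and was next highest in spleen at 8.46 CPM (95% interval 7.11 to 9.98), 11.8-fold lower. Its libraries gave 100.2 CPM in ovary, 8.56 CPM in spleen, 3.63 CPM in liver, 3.59 CPM in brain, 1.10 CPM in muscle and no counts in blood by NextSeq. By MiSeq they gave 93.3 CPM in ovary, 6.92 CPM in spleen, 5.34 CPM in liver, 2.97 CPM in brain, 1.497 CPM in muscle and no counts in blood. By CPM BMP4 was thus at least 1061-fold higher in ovary than in blood, a bound that TMM scaling lowers, and present in all tissues but blood. BMP2, the closest relative of BMP4, was at 17.2 CPM in ovary, 3.36 CPM in spleen, 3.08 CPM in brain, 0.357 CPM in liver, 0.0735 CPM in muscle and no counts in blood by NextSeq. The MiSeq libraries held 14.9 CPM in ovary, 3.96 CPM in brain, 3.46 CPM in spleen, 0.562 CPM in liver and no counts in muscle and blood. The ovary lead of BMP2 lay at the limit, with a log2 ratio to the next tissue of 2.05 in the sum and 1.68 in MiSeq, where 2 is required, and under TMM scaling it was not met. BMP8B-like also led in ovary (7.67 CPM, with 0.915 CPM in brain), short of 4-fold under TMM scaling, and BMP3, an antagonistic family member, was highest there without leading (39.4 CPM, then 10.9 CPM in spleen and 10.2 CPM in brain). A BMP2-like segment had 5.94 CPM in ovary and 4.57 CPM in brain.

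Markers of the cells that make these ligands were found in the ovary pool as well. The 3 markers listed for granulosa cells (FSHR, FOXL2 and CYP19A1) summed to 405 CPM in ovary and at most 21.6 CPM elsewhere, in brain. Aromatase (CYP19A1) made up 302 CPM of the ovary sum and 20.6 CPM of the brain sum. In ovary FSHR was at 43.6 CPM and FOXL2 at 59.5 CPM. The pool cannot tell which follicle cells held the aromatase transcript, so most of the ovary sum cannot be assigned to granulosa cells. The 2 theca markers summed to 129 CPM in ovary and at most 1.47 CPM elsewhere, and 3 of the 4 oocyte markers, those found, to 1732 CPM and at most 1.60 CPM. How much of the ovary level of each ligand goes with the number of these cells was not tested.

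**Figure D4:**
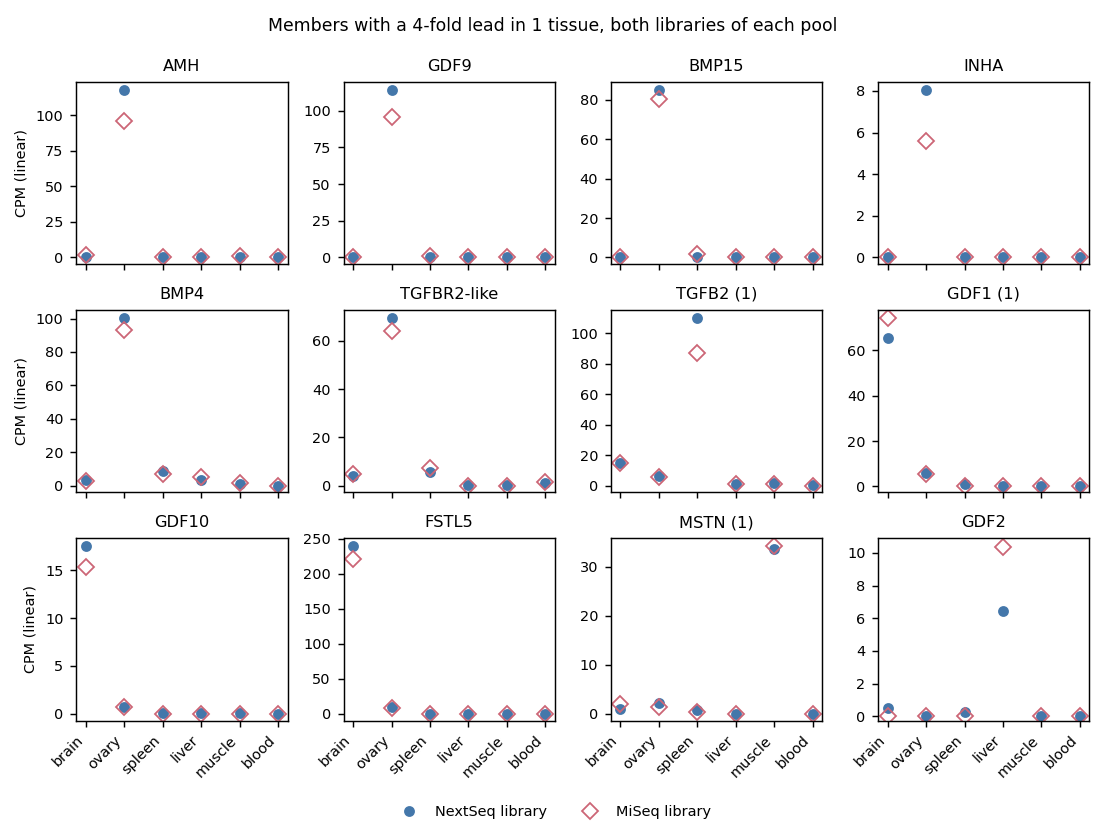
CPM (linear vertical axes, scaled to each panel) of 12 members with a 4-fold lead in 1 tissue, in the NextSeq (filled circles) and MiSeq (open diamonds) library of each tissue pool. In every panel both libraries of the leading tissue stand above those of all other tissues, as for MSTN in muscle at 33.6 and 34.2 CPM.

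The ligands that led in brain were GDF1 and GDF10. GDF1, a partner of nodal in laying out the left-right axis of embryos, was represented by 2 segments. The more abundant one (best match *Parus major*) gave 65.4 CPM in brain, 5.84 CPM in ovary, 0.936 CPM in spleen, 0.0490 CPM in muscle and no counts in liver and blood in NextSeq libraries. In MiSeq it gave 74.2 CPM in brain, 5.57 CPM in ovary and no counts in spleen, liver, muscle and blood. The other (best match *Taeniopygia guttata*) gave 33.0 CPM in brain, 5.23 CPM in ovary, 0.258 CPM in spleen, 0.0149 CPM in liver and no counts in muscle and blood by NextSeq. Its MiSeq libraries gave 28.7 CPM in brain, 7.06 CPM in ovary and no counts in spleen, liver, muscle and blood. It led in the sum and in NextSeq but not in MiSeq, where its log2 ratio was 1.88. Whether they are parts of 1 gene or copies cannot be read from the table. GDF10 (also BMP3B), known from neural and skeletal tissue, had 17.5 CPM in brain, 0.684 CPM in ovary, 0.0893 CPM in liver, 0.0858 CPM in muscle, 0.0646 CPM in spleen and no counts in blood in NextSeq. The MiSeq data gave 15.3 CPM in brain, 0.743 CPM in ovary and no counts in spleen, liver, muscle and blood. It was present at 1 CPM in brain alone. The nodal homolog was at 0.915 CPM (95% interval 0.542 to 1.45) in brain and 0.515 CPM (95% interval 0.278 to 0.873) in ovary, and no counts were found in the other tissues.

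The TGF-βs proper differed from each other. TGFB2 led in spleen. Its main segment had 110.0 CPM in spleen, 14.9 CPM in brain, 6.58 CPM in ovary, 2.11 CPM in muscle, 0.804 CPM in liver and 0.249 CPM in blood by NextSeq. By MiSeq it had 87.0 CPM in spleen, 14.8 CPM in brain, 5.95 CPM in ovary, 1.25 CPM in muscle, 0.842 CPM in liver and no counts in blood. Spleen exceeded brain 7.31-fold. The other TGFB2 segment was highest in spleen too (41.3 CPM, against 10.1 CPM in brain) and fell short of a 4-fold lead with a log2 ratio of 1.93. TGFB3 had 48.4 CPM in brain, 25.3 CPM in spleen, 12.4 CPM in ovary, 11.2 CPM in muscle, 0.953 CPM in liver and 0.183 CPM in blood in the NextSeq libraries. Its MiSeq values were 65.3 CPM in brain, 32.1 CPM in spleen, 11.2 CPM in muscle, 10.8 CPM in ovary, 0.842 CPM in liver and 0.555 CPM in blood. Brain was highest for TGFB3 on both platforms, but under TMM scaling muscle passed it, at 30.8 against 26.2 scaled CPM.

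Myostatin (MSTN, growth/differentiation factor 8 in the table) was the muscle ligand. Its main segment had 33.6 CPM in muscle, 2.33 CPM in ovary, 1.04 CPM in brain, 0.904 CPM in spleen and no counts in liver and blood by NextSeq. The MiSeq libraries gave it 34.2 CPM in muscle, 1.98 CPM in brain, 1.49 CPM in ovary, 0.494 CPM in spleen and no counts in liver and blood. The muscle level was 33.6 CPM (95% interval 31.9 to 35.4) and that of ovary, the next, 2.29 CPM (95% interval 1.75 to 2.95), a 14.7-fold difference. A segment of the same locus named as isoform X1, with which the counting may have split reads, had 21.9 CPM in muscle, 1.77 CPM in ovary, 0.517 CPM in spleen, 0.375 CPM in brain and no counts in liver and blood by NextSeq. By MiSeq it had 14.0 CPM in muscle, 8.18 CPM in ovary, 0.495 CPM in brain and no counts in spleen, liver and blood. Muscle was highest for it on both, though its ovary value in MiSeq was 8.18 CPM against 1.77 CPM in NextSeq, and the lead over ovary was under 4-fold in MiSeq. Skeletal muscle markers (3 of 4 found) summed to 14002 CPM in muscle and at most 20.01 CPM elsewhere, in ovary.

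Liver had a pair of ligands that circulate and act on the endothelium in mammals, GDF2 (also BMP9) and BMP10. GDF2 led in liver at 6.64 CPM (95% interval 5.82 to 7.55), with 6.45 CPM in liver, 0.482 CPM in brain, 0.258 CPM in spleen, 0.0402 CPM in ovary and no counts in muscle and blood in NextSeq and 10.4 CPM in liver and no counts in brain, ovary, spleen, muscle and blood in MiSeq. It was above 1 CPM in no other pool, and at least 70.6-fold higher in liver than the limit for blood. BMP10 had 2.77 CPM (95% interval 2.25 to 3.38) in liver and 0.212 CPM (95% interval 0.0512 to 0.577) in spleen, and its log2 ratio of 1.64 was short of a 4-fold lead, which it reached under TMM scaling. BMP6, the main signal for hepcidin and so for iron balance in mammals, was highest in spleen by CPM and in liver under TMM scaling. BMP6 had 7.01 CPM in spleen, 3.80 CPM in brain, 3.47 CPM in liver, 2.56 CPM in ovary, 0.809 CPM in muscle and no counts in blood by NextSeq and 8.40 CPM in spleen, 5.57 CPM in ovary, 2.81 CPM in liver, 1.48 CPM in brain, 0.249 CPM in muscle and no counts in blood by MiSeq. BMP7 had 9.37 CPM in brain, 7.14 CPM in spleen, 6.90 CPM in ovary, 3.71 CPM in muscle, 0.253 CPM in liver and 0.0831 CPM in blood by NextSeq and 10.4 CPM in spleen, 9.40 CPM in brain, 5.57 CPM in ovary, 3.49 CPM in muscle, 1.39 CPM in blood and no counts in liver by MiSeq. Its highest tissue was brain in the sum, spleen in MiSeq and muscle under TMM scaling, so no tissue can be named for it. BMP5 was rare, with its highest level by CPM in ovary (2.42 CPM; liver under TMM scaling).

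Liver transcripts were also counted in the spleen pool. The 4 hepatocyte markers summed to 103244 CPM in liver and 1129.8 CPM in spleen. Their part in the spleen values of GDF2 and BMP10 was not tested.

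Blood led for no ligand. Its highest ligand value was 1.07 CPM for BMP3, the only ligand at 1 CPM or more there. Of the 26 ligand segments, 21 were present in ovary, 15 in brain, 11 in spleen, 6 in muscle and 4 in liver. Of all segments, 57.7% were present in blood, 88.3% in ovary, 87.7% in brain, 83.4% in spleen, 61.2% in muscle and 66.7% in liver. A single hemoglobin beta segment took 273157 CPM of the blood pool, which lowers the CPM of every other transcript there. The part of this in the low ligand values of blood was not tested.

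Receptors were mostly shared among tissues, with exceptions in ovary and spleen. Of 12 receptor segments, 6 were present in all 6 tissues, which is near the share of all segments (46.5%). Brain had 12, ovary 10, spleen 10, liver 9, muscle 8 and blood 7. Of all segments, 87.7%, 88.3%, 83.4%, 66.7%, 61.2% and 57.7% were present in the same tissues. BMPR2, the type II receptor for BMPs, had 211 CPM in brain, 127 CPM in ovary, 57.8 CPM in spleen, 35.2 CPM in liver, 25.3 CPM in blood and 22.9 CPM in muscle by NextSeq. By MiSeq it had 209 CPM in brain, 105 CPM in ovary, 62.3 CPM in spleen, 37.6 CPM in liver, 21.95 CPM in muscle and 16.4 CPM in blood. Brain was its highest tissue, 1.68-fold above ovary. The type I receptors for BMPs parted. BMPR1A reached 1 CPM in all tissues but blood, with 28.5 CPM in brain, 20.7 CPM in ovary, 14.6 CPM in spleen, 12.8 CPM in liver, 9.66 CPM in muscle and 0.199 CPM in blood in NextSeq and 35.1 CPM in brain, 28.6 CPM in ovary, 15.3 CPM in spleen, 11.97 CPM in muscle, 8.70 CPM in liver and no counts in blood in MiSeq, with brain highest by CPM and muscle under TMM scaling. BMPR1B, which relays BMP15 signals in the mammalian follicle, was highest in ovary. It had 31.8 CPM in ovary, 12.2 CPM in spleen, 5.62 CPM in brain, 0.502 CPM in muscle, 0.342 CPM in liver and 0.216 CPM in blood in NextSeq. In MiSeq it had 23.4 CPM in ovary, 10.9 CPM in spleen, 1.98 CPM in brain, 1.25 CPM in muscle and no counts in liver and blood. Ovary exceeded spleen 2.58-fold for BMPR1B.

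The TGF-β receptors showed unlike patterns. TGFBR1, the type I receptor, had 82.3 CPM in liver, 72.2 CPM in ovary, 65.5 CPM in spleen, 37.5 CPM in brain, 12.7 CPM in blood and 4.61 CPM in muscle by NextSeq and 76.4 CPM in liver, 67.2 CPM in spleen, 65.0 CPM in ovary, 34.6 CPM in brain, 8.88 CPM in blood and 4.99 CPM in muscle by MiSeq. It was present in every tissue and highest in liver, where it led under TMM scaling. TGFBR2, the type II receptor, was highest in spleen, at 90.1 CPM in spleen, 22.9 CPM in brain, 8.41 CPM in ovary, 6.12 CPM in liver, 4.50 CPM in muscle and 0.731 CPM in blood by NextSeq. The MiSeq libraries gave 68.7 CPM in spleen, 26.7 CPM in brain, 12.6 CPM in ovary, 9.83 CPM in liver, 5.99 CPM in muscle and no counts in blood. It exceeded brain 3.85-fold, and its log2 ratio with 1 CPM added, 1.90, fell just short of a lead. A distinct segment named TGF-beta receptor type-2-like was the only receptor that led, and it led in ovary. NextSeq gave it 69.4 CPM in ovary, 5.49 CPM in spleen, 3.86 CPM in brain, 0.898 CPM in blood, 0.306 CPM in muscle and 0.253 CPM in liver. MiSeq gave it 63.9 CPM in ovary, 7.41 CPM in spleen, 4.95 CPM in brain, 1.39 CPM in blood and no counts in liver and muscle. Its ovary level of 69.1 CPM (95% interval 66.0 to 72.4) was 12.3-fold that of spleen, and what ligand its product binds cannot be read from the name.

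Segments named as activin receptors had no common tissue of highest level. The main segment of ACVR2A, a type II receptor for activins, had 45.2 CPM in brain, 28.8 CPM in blood, 25.1 CPM in ovary, 10.3 CPM in spleen, 2.86 CPM in muscle and 2.13 CPM in liver by NextSeq and 55.9 CPM in brain, 30.8 CPM in blood, 25.3 CPM in ovary, 11.9 CPM in spleen, 2.25 CPM in muscle and 1.12 CPM in liver by MiSeq. Brain was highest by CPM, while blood was highest under TMM scaling and without the 50 most abundant segments. Another segment of its locus followed it at lower values (17.1 CPM in brain and 15.01 CPM in blood). ACVR2B, which binds myostatin as well, had 4.15 CPM in liver, 3.86 CPM in brain, 0.966 CPM in ovary, 0.947 CPM in blood, 0.549 CPM in spleen and 0.0368 CPM in muscle by NextSeq and 3.37 CPM in liver, 2.97 CPM in brain, 2.22 CPM in blood, 0.372 CPM in ovary and no counts in spleen and muscle by MiSeq. Liver (4.11 CPM (95% interval 3.47 to 4.84)) and brain (3.81 CPM (95% interval 2.997 to 4.78)) had overlapping intervals for ACVR2B by CPM, while TMM scaling put liver above brain (7.25 against 2.03 scaled CPM). In muscle, where myostatin led, ACVR2B was at 0.0350 CPM (95% interval 0.00252 to 0.150) and the main ACVR2A segment at 2.83 CPM (95% interval 2.35 to 3.38). These are levels of different segments and are not compared with each other. The type I receptors ACVR1 and ACVR1B were present in all tissues and highest in spleen by CPM (32.5 CPM and 48.2 CPM), closely followed by brain (27.5 CPM and 47.0 CPM), and highest in blood under TMM scaling. ACVR1C reached 1 CPM in brain alone, at 2.03 CPM, though in MiSeq ovary was highest.

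SMADs carry the signal of all these receptors, and most were found throughout. Of 13 segments, 8 were present in all 6 tissues (46.5% of all segments were). None led, though SMAD4 in blood came nearest to a lead with a log2 ratio of 1.64. The SMADs of the activin branch had these values. SMAD2 had 42.2 CPM in blood, 39.7 CPM in ovary, 35.6 CPM in spleen, 30.4 CPM in brain, 6.09 CPM in muscle and 5.76 CPM in liver by NextSeq and 50.9 CPM in ovary, 46.5 CPM in spleen, 44.4 CPM in blood, 41.0 CPM in brain, 9.55 CPM in liver and 5.24 CPM in muscle by MiSeq. Blood, ovary and spleen lay close together for it by CPM, and blood was highest in the sum and ovary in MiSeq. Under TMM scaling blood stood apart, at 74.9 scaled CPM against 18.1 in ovary and 17.7 in spleen. SMAD3 had 58.6 CPM in ovary, 28.1 CPM in brain, 13.4 CPM in spleen, 2.75 CPM in muscle, 2.17 CPM in liver and 0.0997 CPM in blood by NextSeq and 59.8 CPM in ovary, 31.2 CPM in brain, 16.8 CPM in spleen, 3.37 CPM in liver, 2.49 CPM in muscle and no counts in blood by MiSeq. Ovary was highest on both platforms, and in blood SMAD3 was at 0.0941 CPM (95% interval 0.0194 to 0.275), where SMAD2 had its highest level. A segment named SMAD2-like reached 131 CPM in spleen, with 12.1 CPM in blood, the lowest of its tissues, with muscle highest under TMM scaling.

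SMADs of the BMP branch were highest in ovary or spleen. SMAD1 had 60.6 CPM in ovary, 30.9 CPM in spleen, 11.5 CPM in brain, 4.74 CPM in liver, 4.63 CPM in muscle and 0.612 CPM in blood. SMAD5 had 55.9 CPM in spleen, 32.7 CPM in ovary, 19.8 CPM in brain, 9.08 CPM in blood, 6.48 CPM in muscle and 5.37 CPM in liver. SMAD9 had its lowest levels in liver and blood, with 9.73 CPM in spleen, 6.63 CPM in brain, 3.23 CPM in ovary, 0.619 CPM in muscle, 0.0565 CPM in liver and 0.0314 CPM in blood. The highest tissue of these 3 was the same on both platforms and under each scaling.

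SMAD4, the shared partner, was represented by 3 segments that did not agree. The one with the most counts (best match *Geospiza fortis*) had 163 CPM in blood, 51.2 CPM in spleen, 37.9 CPM in brain, 24.1 CPM in ovary, 12.7 CPM in liver and 12.01 CPM in muscle in NextSeq libraries. MiSeq gave it 178 CPM in blood, 62.3 CPM in spleen, 45.5 CPM in brain, 25.3 CPM in ovary, 13.2 CPM in liver and 12.5 CPM in muscle. Blood exceeded spleen 3.15-fold, and led under TMM scaling. The second (best match *Serinus canaria*) had 48.0 CPM in ovary, 23.8 CPM in brain, 22.3 CPM in spleen, 9.18 CPM in muscle, 8.84 CPM in blood and 4.84 CPM in liver by NextSeq and 43.5 CPM in ovary, 31.2 CPM in brain, 18.8 CPM in spleen, 11.2 CPM in muscle, 9.16 CPM in blood and 3.93 CPM in liver by MiSeq. Ovary was its highest tissue by CPM and muscle under TMM scaling, and its blood level was 8.86 CPM (95% interval 7.86 to 9.96) beside 164 CPM (95% interval 159 to 168) for the first. The third, from the same locus as the second, had 11.4 CPM in ovary and 3.98 CPM in blood, with spleen highest in MiSeq and blood under TMM scaling. Reads shared between such segments may have been split by the counting, so the level of the gene as a whole is uncertain.

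The inhibitory SMADs SMAD6 and SMAD7 each had a segment at 1 CPM or more in all pools. SMAD6 had 21.0 CPM in ovary, 14.0 CPM in spleen, 10.8 CPM in blood, 3.51 CPM in brain, 3.42 CPM in liver and 1.04 CPM in muscle by NextSeq and 20.8 CPM in ovary, 11.4 CPM in spleen, 9.16 CPM in blood, 2.97 CPM in brain, 2.49 CPM in muscle and 1.68 CPM in liver by MiSeq, highest in ovary by CPM and in blood under TMM scaling. SMAD7 had 11.7 CPM in ovary, 5.84 CPM in spleen, 4.93 CPM in brain, 3.97 CPM in blood, 2.65 CPM in liver and 1.19 CPM in muscle by NextSeq and 10.4 CPM in ovary, 6.92 CPM in spleen, 2.97 CPM in brain, 2.81 CPM in liver, 1.94 CPM in blood and 0.998 CPM in muscle by MiSeq, with the same exchange of ovary for blood under TMM scaling. A SMAD6-like segment was highest in spleen (13.2 CPM; muscle under TMM scaling), and a further SMAD7 segment reached 1 CPM in brain alone (1.04 CPM).

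Secreted antagonists were found mainly in brain and ovary and were rare in muscle and blood, where none of the 5 reached 1 CPM before TMM scaling. Of all segments, 61.2% reached it in muscle and 57.7% in blood. Follistatin (FST), which binds activins and myostatin, had 8.73 CPM in ovary, 2.56 CPM in liver, 1.61 CPM in brain, 0.420 CPM in spleen, 0.0858 CPM in muscle and no counts in blood by NextSeq and 13.4 CPM in ovary, 2.81 CPM in liver, 0.989 CPM in brain and no counts in spleen, muscle and blood by MiSeq. Ovary was highest by CPM and exceeded liver 3.49-fold, while liver was highest under TMM scaling. Noggin, which sequesters BMPs, was found in ovary at 10.8 CPM (95% interval 9.55 to 12.1) and in brain at 9.78 CPM (95% interval 8.45 to 11.3), intervals that overlap (brain was highest under TMM scaling), and its counts were 0 in liver, muscle and blood. Gremlin-2, a BMP antagonist, was highest in brain (9.73 CPM, with 2.43 CPM in liver and 2.29 CPM in ovary). Gremlin-1 was at 1.49 CPM in spleen (muscle was highest under TMM scaling), and FSTL3, a relative of follistatin, at 2.16 CPM in ovary.

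The other follistatin-related proteins carry a follistatin domain and are not classed as antagonists here. FSTL5 led in brain at 238 CPM (95% interval 231 to 245), with 239 CPM in brain, 9.78 CPM in ovary, 0.129 CPM in spleen, 0.0490 CPM in muscle and no counts in liver and blood by NextSeq. In MiSeq it had 221 CPM in brain, 8.55 CPM in ovary, 0.499 CPM in muscle and no counts in spleen, liver and blood. Brain exceeded ovary 24.5-fold, and its τ of 0.816 was the only one over 0.8 outside the ligands. FSTL4 was shared by brain at 65.3 CPM and ovary at 21.8 CPM, with at most 0.184 CPM in any other tissue. FSTL1, a secreted protein of mesenchymal cells, was highest in ovary (119 CPM), then spleen (34.8 CPM) and brain (16.4 CPM).

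LTBP1, a latency protein that holds TGF-β in the matrix until it is released, had its highest level in spleen, as TGFB2 had. Its name is carried by 5 segments of 1 locus. The most abundant had 142 CPM in spleen, 33.1 CPM in ovary, 9.53 CPM in brain, 1.76 CPM in liver, 0.221 CPM in muscle and no counts in blood by NextSeq. By MiSeq it had 137 CPM in spleen, 35.3 CPM in ovary, 7.42 CPM in brain, 0.562 CPM in liver and no counts in muscle and blood. The segment next in level had 140.4 CPM in spleen, 32.6 CPM in ovary, 9.43 CPM in brain, 2.07 CPM in liver, 0.257 CPM in muscle and no counts in blood by NextSeq, and 128 CPM in spleen, 34.2 CPM in ovary, 6.43 CPM in brain, 1.12 CPM in liver and no counts in muscle and blood by MiSeq. Spleen was highest for all 5, at 74.7 CPM to 141 CPM, and ovary next at 22.4 CPM to 33.3 CPM. The log2 ratio was over 2 for 2 of the 5 (2.05 and 2.06) and for none in MiSeq, so LTBP1 lies at the limit of the call. Counts of LTBP1 were 0 in blood, which by CPM puts spleen at least 1501-fold higher for the most abundant segment, a bound that TMM scaling lowers. LTBP2 was spread over brain (25.6 CPM), ovary (18.1 CPM) and spleen (16.4 CPM) in its main segment, with muscle highest under TMM scaling, and a lower segment of the locus ranked the same tissues alike (9.73 CPM in brain). BMP1, a metalloprotease that trims procollagen and chordin rather than a ligand, had 41.2 CPM in liver, 40.5 CPM in ovary, 33.0 CPM in brain, 30.9 CPM in spleen, 0.385 CPM in muscle and 0.0941 CPM in blood, with liver and ovary nearly equal by CPM, while TMM scaling put liver well above ovary (72.6 against 18.2 scaled CPM). NOMO1 was present in every tissue (51.3 CPM in muscle to 342 CPM in brain, with liver highest under TMM scaling).

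Markers of vessel, stromal and immune cells were highest in the spleen pool by CPM. Markers of endothelium (4 of 4 found) summed to 712 CPM in spleen and 42.0 to 199 CPM elsewhere, though muscle was highest under TMM scaling (548 against 347 scaled CPM in spleen). Those of smooth muscle (2 of 3 found) summed to 1407 CPM in spleen and at most 214 CPM elsewhere, and those of stroma (2 of 5 found) to 416 and at most 252 CPM. Leukocyte markers (4 of 4 found) summed to 3009.6 CPM in spleen and at most 258 CPM elsewhere. The part of these cells in the spleen levels of TGFB2, TGFBR2 and LTBP1 was not tested.

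The other genes of the pathway, listed by name outside the search terms, were shared more evenly than the ligands. Of 58 genes listed, 47 were matched by protein name and 46 reached 1 CPM in some tissue. Of these, 7 led in 1 tissue (15.2%, against 22.2% of all segments), and median τ was 0.460. By CPM 15 were highest in brain, 13 in ovary, 13 in spleen, 4 in blood, 1 in liver and 0 in muscle. The names FURIN, FKBP1A and LRRC32 had 2 segments each, and only the one with the most counts was taken.

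In spleen the TGF-β target TGFBI led, at 858 CPM in spleen and 18.7 CPM in ovary, and so did the endothelial co-receptor endoglin, at 82.3 CPM in spleen and 10.8 CPM in ovary, though endoglin fell short of 4-fold under TMM scaling. The co-receptor TGFBR3, or betaglycan, which presents TGFB2 and inhibin, was highest in spleen without leading (195 CPM in spleen, 83.1 CPM in ovary and 46.7 CPM in brain). In ovary the leads were the BMP binder NBL1 (39.7 CPM in ovary and 2.82 CPM in brain) and the ubiquitin ligase NEDD4L (834 CPM in ovary and 159 CPM in brain; short of 4-fold under TMM scaling). In brain they were the BMP co-receptor RGMA (36.5 CPM in brain and 5.77 CPM in ovary) and the BMP antagonist SOSTDC1 (11.97 CPM in brain and 1.39 CPM in ovary). In blood the ubiquitin ligase WWP1 led (1342 CPM in blood, 215 CPM in ovary and 171 CPM in muscle), and USP15, a deubiquitinase of the pathway, was highest without leading (853 CPM in blood and 245 CPM in spleen). The pseudoreceptor BAMBI, which blocks signals in the membrane, was at 166 CPM in liver and 155 CPM in ovary, and led in liver under TMM scaling.

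The technical repeat bears on how far single values can be read. For members with 100 or more counts in a pool, the log2 ratio of MiSeq to NextSeq had an SD across members of 0.30 in ovary to 0.43 in brain. The highest tissue was the same on both platforms for 59 of 67 members, against 89% of all segments. It was the same in all settings tried (either platform alone, TMM scaling, a pseudocount of 0.5 CPM, and without the 50 most abundant segments) for 41 of 67 members, among them all 18 that led.

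**Figure D5:**
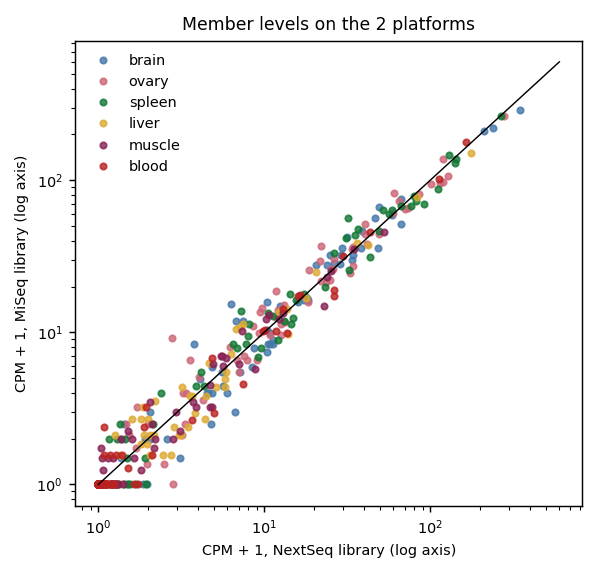
CPM plus 1 of the 68 members in the MiSeq library (vertical, log axis) against the NextSeq library (horizontal, log axis) of the same tissue pool, coloured by tissue, with the line of equality. Points follow the line at high levels and scatter near 1, where a MiSeq value rests on 1 or 2 counts.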

How the data were processed

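Paired-end reads of 12 libraries (6 tissue pools, each on NextSeq and MiSeq) were trimmed by the authors with Trimmomatic 0.36 and mapped to the protein-coding segments of their de novo transcriptome. The study's methods name bwa mem and the processing notes name STAR 2.5.2a, and the aligner behind the table was not settled. The values deposited by the authors are estimated counts of mapped reads per segment, in steps of 0.5 and not normalized. Some columns of the deposited table, listed apart as other because they write values from 1000 with separators, hold the same counts, and the separators were removed.

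CPM were computed, without rounding, from the counts of both libraries of a pool together, whose totals were 16496224 to 42803055. A segment was present at 1 CPM or more and led at 4-fold over every other tissue with 1 CPM added. τ used natural logs and a floor of 2 CPM. Poisson intervals cover counting error only. With 1 pool per tissue there was no test and no p-value. Alternatives were either platform alone, TMM factors (edgeR 4.0.16, R 4.3.3), leaving out the 50 most abundant segments of each tissue, and other thresholds, folds, pseudocounts and floors. Python 3.11.15 with pandas 2.3.3 and scipy 1.17.1 was used. The 4-fold call was run on simulated counts, with large rises planted in well-counted segments alone. That run does not bear on calls at low counts, on split reads or on scaling. Members, gene lists and rules were chosen with earlier results of these data known. Values in all 12 libraries are given for members that led at 10 CPM or more and for the most abundant segment of each gene in a textbook set, and other members are given by summed level. For markers and other pathway genes, the segment of a name with the most counts was used. No sequences of the segments were used here.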

Additional observations from a re-analysis of the deposited data

How the results depend on the processing

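Presence per tissue stayed within 1.5 times its value in all 42 alternatives. The highest tissue turned for 21 of 67 members under TMM factors, 7 without the 50 most abundant segments, 7 without replicate 1 (NextSeq) and 1 without replicate 2 (MiSeq), but for none of the 18 members that led. Under TMM factors the members highest in each tissue numbered 11 for brain, 14 for ovary, 10 for spleen, 9 for liver, 11 for muscle and 9 for blood, and median τ was 0.487. Leads under TMM numbered 3 in liver and 1 in blood. Of the other pathway genes, whose alternatives were chosen after seeing the data, TMM put 7 highest in ovary, 4 in liver, 4 in muscle and 7 in blood. Without the 50 most abundant segments, 5 members were highest in muscle and 6 in blood, 2 led in liver and 1 in blood, and 2 other pathway genes were highest in liver and 1 in muscle. These differences follow from scale factors that move whole tissues. With a fold of 2, leads numbered 7 for brain, 14 for ovary, 10 for spleen, 2 for liver and 1 for blood. With a pseudocount of 0.5 CPM, 2 led in liver. With segments of a name summed, 1 member was highest in muscle, and 1 led in spleen and 1 in muscle. With a τ floor of 1 CPM the median was 0.765.

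With 1 platform left out, members highest in blood numbered 1 to 2, leads in spleen 1 to 3, leads in muscle 1 to 2, other pathway genes highest in brain 9 to 15, and median τ was 0.547 to 0.561. Leaving out NextSeq gave the lower counts. A MiSeq count is worth up to 0.989 CPM, and the parts of depth and read length in these differences were not tested. No paired analysis was possible because no test was made: each tissue is 1 pool and its replicate numbers only mark the platform.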

Other observations

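Among the 10 target genes listed, 6 were found, and TGFBI, given above, was the 1 of them that led. None of the following targets and regulators led by 4-fold in a tissue. KLF10, an early TGF-β response gene, had 99.1 CPM in ovary, 41.3 CPM in spleen and 16.6 CPM in liver. ID2 and CCN2 were highest in spleen, with 48.9 CPM in spleen and 18.2 CPM in brain for ID2 and 57.5 CPM in spleen and 45.1 CPM in ovary for CCN2. ID3, a BMP response gene, had 28.3 CPM in ovary, 25.5 CPM in liver and 18.1 CPM in spleen, and liver passed ovary under TMM scaling. ID1 was rare, at 1.15 CPM in ovary and 0.394 CPM in spleen. In brain the endosomal SMAD anchor ZFYVE9 (309 CPM in brain, 175 CPM in ovary and 55.0 CPM in spleen), the type I receptor binder FKBP1A (251 CPM in brain against 65.0 CPM in spleen) and the ubiquitin ligase SMURF1 (138 CPM in brain against 71.5 CPM in spleen) were highest. In blood the precursor protease furin (80.6 CPM in blood, 62.1 CPM in ovary and 29.6 CPM in liver) and ZFYVE16 (276 CPM in blood and 197 CPM in spleen) were highest. For furin and FKBP1A these are the values of the more abundant of 2 segments.

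A few proteins (BRINP1, BRINP2, BRINP3 and BMP2K) are named for their induction by BMPs without belonging to the family, and they were chosen after their values were seen. In brain and ovary respectively, BRINP1 was at 206 and 1.16 CPM, BRINP3 at 48.1 and 1.66 CPM, and BRINP2 at 52.9 and 13.1 CPM. BMP-2-inducible protein kinase (BMP2K) had 215 CPM in ovary, 128 CPM in spleen and 34.2 CPM in brain.

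The 9 protein names with several segments hold 13 segments beyond the most abundant of each name, and 10 of the 13 had the same highest tissue as that one by CPM. The exceptions were SMAD4 (blood for 1 segment, and ovary for 2 that share another locus) and SMAD7 (ovary and brain, with different locus numbers). Different locus numbers alone do not mark the exceptions. The segments of BMP2-like, GDF1 and TGFB2 differ in them as well and had the same highest tissue.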
